A study of Mus musculus with 8 samples.

Results

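The genes of oxidative phosphorylation were examined in the testes of Tmem232-/- and Tmem232+/+ mice. Members were chosen by gene symbol, as the nuclear-encoded subunits of respiratory complexes I to IV and of ATP synthase, together with Cyc1, Cycs and Cyct. The rule matched 98 of the 19906 genes in the table. By function these were 39 subunits of complex I, 8 complex I assembly factors of the Ndufaf family, 4 subunits of complex II, 9 of complex III including Cyc1, 2 cytochromes c, 19 of complex IV and 17 of ATP synthase. The 8 Ndufaf genes encode proteins that help to build complex I and are not part of the finished enzyme. The name subunits thus does not cover them, nor the soluble cytochromes c or Cox7a2l. By its symbol alone Atp5s, which encodes coupling factor B, was counted with ATP synthase, without a check that it is a subunit. Ndufa4 and Ndufa4l2 were placed with complex IV. The subunits encoded by mitochondrial DNA were not analysed here.

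The study asked what the loss of the transmembrane protein TMEM232 does to sperm and to the testis. Whole-testis RNA from 4 Tmem232-/- and 4 Tmem232+/+ mice, all 2 months old, was sequenced with 1 library per mouse. The Tmem232-/- mice, on a C57BL/6 background, carried a CRISPR-Cas9 deletion within the gene in every cell, and the labels name no treatment for either genotype. A whole testis holds germ cells at all stages and somatic cells, so that fewer cells of a type and less RNA per cell cannot be told apart.

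Complexes I to IV pass electrons from NADH and succinate to oxygen and build a proton gradient across the inner mitochondrial membrane, which ATP synthase (complex V) uses to make ATP. Cytochrome c is the small carrier that takes electrons from complex III to complex IV. Germ cells of the testis use their own isoforms of several of these proteins. Cyct encodes the testis form of cytochrome c beside the somatic Cycs, and Cox6b2, Cox7b2 and Cox8c encode testis forms of complex IV subunits beside Cox6b1, Cox7b and Cox8a.

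The libraries held between 15428421 and 16350871 counts, and the members took between 0.751% and 0.987% of them. The median count of a member in a library was 922.5. Tmem232 itself was counted at 148, 132, 123 and 122 CPM (counts scaled to a library of 1000000) in the libraries labelled Tmem232-/- and at 111, 106, 108 and 110 CPM in the Tmem232+/+ ones, and its log2 fold change was 0.27 ± 0.07 (SE; adjusted p = 0.034, edgeR). This call was lost without Tmem232-/- replicate 1 or 2 or Tmem232+/+ replicate 2 or 4, with adjusted p of 0.086 to 0.089 (edgeR). It was also lost with the replicate number as a block (adjusted p = 0.11, edgeR). A count over the whole gene includes exons outside the deleted fragment, so it did not check the genotypes, which are given here as labelled. Markers of late germ cells differed between the genotypes. All 11 markers of elongating spermatids and 10 of 11 of round spermatids were higher in Tmem232-/- testes at an adjusted p under 0.05 in edgeR, with summed levels of 1344 to 2225 against 341 to 691 CPM and of 806 to 1056 against 407 to 599 CPM. Among 12 markers of spermatogonia 4 were lower, among 11 of spermatocytes 1 was lower, and among 8 of peritubular myoid cells 1 was higher and 2 were lower. No marker of Sertoli cells, Leydig cells, macrophages, endothelial cells, red blood cells or epididymis passed the test. None of these lists was at 0 in any library. The part of these cell type differences in the values of the members was not tested.

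The regions before the start sites of 4 members are shown because they stand before a testis isoform and its widely expressed counterpart. RefSeq (GRCm38.p6) gave the 250 bases before the start for 78 of the 98 members. Each is written 5′ to 3′ on the strand of its gene, with the letters of any match in capitals. The motifs searched, on both strands, were TGACGTCA (the cAMP response element), CGCATGCG (the core of the site of nuclear respiratory factor 1), CCGGAAG (a site of ETS factors) and CCAAT, which reads ATTGG on the other strand.
Cyct, minus strand of chr2:76360454-76360703: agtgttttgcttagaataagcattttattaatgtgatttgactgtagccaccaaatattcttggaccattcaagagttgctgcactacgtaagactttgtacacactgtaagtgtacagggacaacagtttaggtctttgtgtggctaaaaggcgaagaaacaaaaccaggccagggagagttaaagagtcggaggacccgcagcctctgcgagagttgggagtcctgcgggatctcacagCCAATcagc
Cycs, minus strand of chr6:50566570-50566819: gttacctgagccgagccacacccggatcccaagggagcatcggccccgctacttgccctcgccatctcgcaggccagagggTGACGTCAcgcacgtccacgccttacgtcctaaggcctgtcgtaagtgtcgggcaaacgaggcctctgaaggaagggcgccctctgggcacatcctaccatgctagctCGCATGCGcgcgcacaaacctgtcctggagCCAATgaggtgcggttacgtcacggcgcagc
Cox7b2, minus strand of chr5:71548206-71548455: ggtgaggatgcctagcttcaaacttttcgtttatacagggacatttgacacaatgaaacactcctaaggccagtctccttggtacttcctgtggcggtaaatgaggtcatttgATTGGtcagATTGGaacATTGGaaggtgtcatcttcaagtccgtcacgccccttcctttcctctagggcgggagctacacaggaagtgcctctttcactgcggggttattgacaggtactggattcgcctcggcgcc
Cox7b, plus strand of chrX:106015450-106015699: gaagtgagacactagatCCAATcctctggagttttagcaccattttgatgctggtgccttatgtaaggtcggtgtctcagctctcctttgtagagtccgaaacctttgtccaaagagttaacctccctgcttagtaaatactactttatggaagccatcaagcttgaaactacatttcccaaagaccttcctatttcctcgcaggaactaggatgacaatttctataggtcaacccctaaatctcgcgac

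The window of Cycs held TGACGTCA, CGCATGCG and CCAAT, and that of Cyct held only CCAAT among the 4 motifs. Cox7b2 had CCAAT at 3 places and Cox7b at 1. CGCATGCG was found in 9 of the 78 windows (11.5%) beside 1.75% of 27025 genes with a window, CCGGAAG in 14 (17.9%) beside 7.83%, and TGACGTCA in 5 (6.41%) beside 1.77%. CCAAT was found in 36 (46.2%) beside 37.5%. These are matches of letters, and no binding was measured here.

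The testis isoforms were among the most abundant members, and neither they nor their counterparts passed the test between the genotypes. Levels of different genes are compared in FPKM (fragments per kilobase of transcript, scaled to the library). Cox8c had the highest level of all members, with 873, 812, 786 and 1007 FPKM in the Tmem232-/- libraries and 908, 822, 1047 and 933 FPKM in the Tmem232+/+ libraries. The genotypes overlapped over most of their range. Its counterpart Cox8a was at 76.8, 66.6, 65.2 and 106 FPKM against 93.1, 88.3, 104 and 85.7 FPKM, and again the genotypes overlapped, with the highest library in the Tmem232-/- group. Cox8c made up between 90.3% and 92.4% of the FPKM of this pair.

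Cox6b2, which encodes the testis form of a subunit that contacts cytochrome c, was at 504 ± 85.5 FPKM in Tmem232-/- and 576 ± 143 FPKM in Tmem232+/+ testes (mean ± SD, n = 4). Cox6b1 was at 92.7 ± 16.7 and 99.2 ± 11.6 FPKM (SD, n = 4). The libraries of each gene overlapped between the genotypes, and Cox6b2 made up 82.8% to 87.0% of the pair. Cox7b2 stood at 484, 425, 397 and 473 FPKM against 462, 405, 523 and 516 FPKM. Cox7b, the X-linked counterpart, was at 8.26, 7.21, 6.71 and 15.8 FPKM against 8.83, 10.7, 13.2 and 9.34 FPKM. Here 1 Tmem232-/- library stood above all others and the other 3 were below every Tmem232+/+ library. The ratio of Cox7b2 to Cox7b lay between 30.0 and 59.1 over the 8 libraries, the largest of the pairs.

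Cyct was at 253, 203, 218 and 271 FPKM in Tmem232-/- and at 225, 231, 301 and 236 FPKM in Tmem232+/+ libraries. Cycs was at 41.8, 34.9, 37.2 and 50.8 FPKM against 43.6, 46.0, 52.1 and 43.7 FPKM. The order of the pair depends on the lengths used, because the counts of both genes were close, at 109 to 144 CPM for Cyct and 124 to 147 CPM for Cycs in the Tmem232+/+ libraries. The deposited values correspond to a length of 488 bases for Cyct and of 2885 bases for Cycs. Per length Cyct was 5.01 to 6.05 times as abundant as Cycs in every library.

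**Figure D1:**
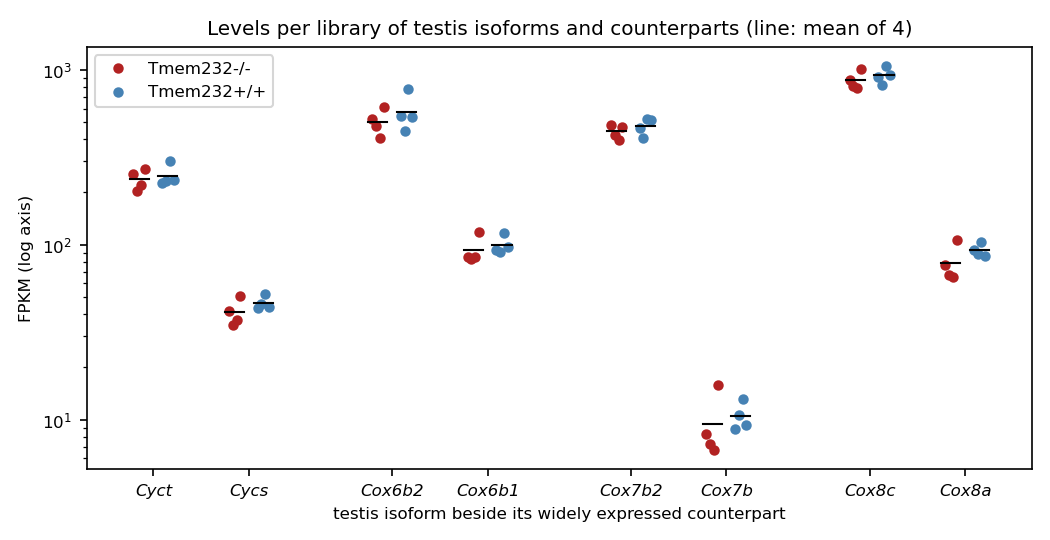
FPKM (log axis) of 4 testis isoforms beside their widely expressed counterparts, with 1 point per library, 4 libraries per genotype and a line at each mean. Every testis isoform lies above its counterpart in all 8 libraries, and in each gene the genotypes overlap.

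The balance between isoform and counterpart was compared within each library as a log2 ratio of CPM + 0.5, so that the scaling of the library has little bearing on abundant pairs and more on isoforms near or under 1 CPM. For Cyct over Cycs the difference between the genotypes was 0.11 (exact permutation test, two-sided p = 0.11). It was -0.07 for Cox6b2 over Cox6b1 (exact p = 0.57), 0.11 for Cox7b2 over Cox7b (exact p = 0.74) and 0.17 for Cox8c over Cox8a (exact p = 0.14). Over the 4 testis pairs the ratios of the genotypes overlapped, for Cox7b2 over Cox7b only through Tmem232-/- replicate 4, without which the difference was 0.33 (exact p = 0.086). Leaving out any 1 of the other 7 libraries gave 0.019 to 0.20 for this pair. With 4 mice per genotype the smallest two-sided p of this test is 0.029.

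Of 3 further pairs, with isoforms of heart, skeletal muscle or lung, 2 had a detectable isoform. Cox7a1 over Cox7a2, the muscle and the liver form, differed by 0.18 between the genotypes (exact p = 0.37). Leaving out 1 library gave 0.060 to 0.27 for this pair. Cox7a1 stayed at 22.1 ± 7.66 and 21.8 ± 7.90 FPKM beside 182 ± 27.2 and 203 ± 40.1 FPKM of Cox7a2 (SD, n = 4). Cox4i2, the lung form of subunit 4, was at 1.33, 1.63, 1.08 and 1.29 CPM in Tmem232-/- and at 1.12, 1.03, 1.01 and 0.553 CPM in Tmem232+/+ libraries. The groups overlapped in CPM. Relative to Cox4i1 the log2 ratio was higher by 0.51 in Tmem232-/- testes without overlap, with the smallest exact permutation p of 0.029 and 0.20 after Benjamini-Hochberg adjustment over the 7 pairs. In the deposited FPKM, Cox4i2 taken by itself, without Cox4i1, went the other way, at 0.723 ± 0.219 against 0.770 ± 0.257 FPKM (SD, n = 4). Its share of the FPKM of the pair was 0.180 ± 0.065% against 0.169 ± 0.065% (SD, n = 4), and the genotypes overlapped. In edgeR the log2 fold change of Cox4i2 was 0.52 ± 0.26 (SE; adjusted p = 0.25). Cox6a2, the heart and muscle form of subunit 6a, had 2 counts in 1 Tmem232-/- library, 1 count in 1 Tmem232+/+ library and 0 in the other 6. A count of 0 allows up to 3 counts, or 0.188 CPM at the mean library size after TMM scaling. Cox6a1 was at 329 ± 54.0 and 373 ± 52.6 FPKM (SD, n = 4).

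Across the whole set, the genes of oxidative phosphorylation changed little between the genotypes. Of the 98 members 95 passed the filter on low counts, and of these 0 were higher and 1 was lower at an adjusted p under 0.05 in edgeR's quasi-likelihood test, with 5 at an unadjusted p under 0.05. Among all 15787 tested genes 11.8% were called, 10.3% higher and 1.46% lower, and 25.1% had an unadjusted p under 0.05. The share of members called was thus 1 of 95 in the direction in which 1.46% of all genes were called. DESeq2 called 0 members beside 13.0% of all tested genes.

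Most estimates were small and below 0. The log2 fold change was below 0 for 87 of 95 members and for 9600 of the 15787 tested genes, with a median of -0.13 beside -0.05 over all tested genes. The median was -0.02 without Tmem232+/+ replicate 3, beside -0.03 over all genes, with 41 members above 0. Without Tmem232+/+ replicate 1 or Tmem232-/- replicate 3 it was -0.08, with 20 and 18 members above 0. With the trend of each library with transcript length removed it was -0.06 beside -0.01 over all genes, with 25 members above 0. The 95% intervals reached a median of 0.27 to either side on the log2 scale, and 94 of 95 lay within a 2-fold change in either direction. The exception was Cox4i2, with an upper bound of 1.09. For 88 members the interval lay within a 1.5-fold change. Of the 95 tested members 0 were higher in all Tmem232-/- libraries than in all Tmem232+/+ libraries, and 4 were lower in all of them, beside 11.8% and 6.88% of all tested genes without overlap in these directions.

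**Figure D2:**
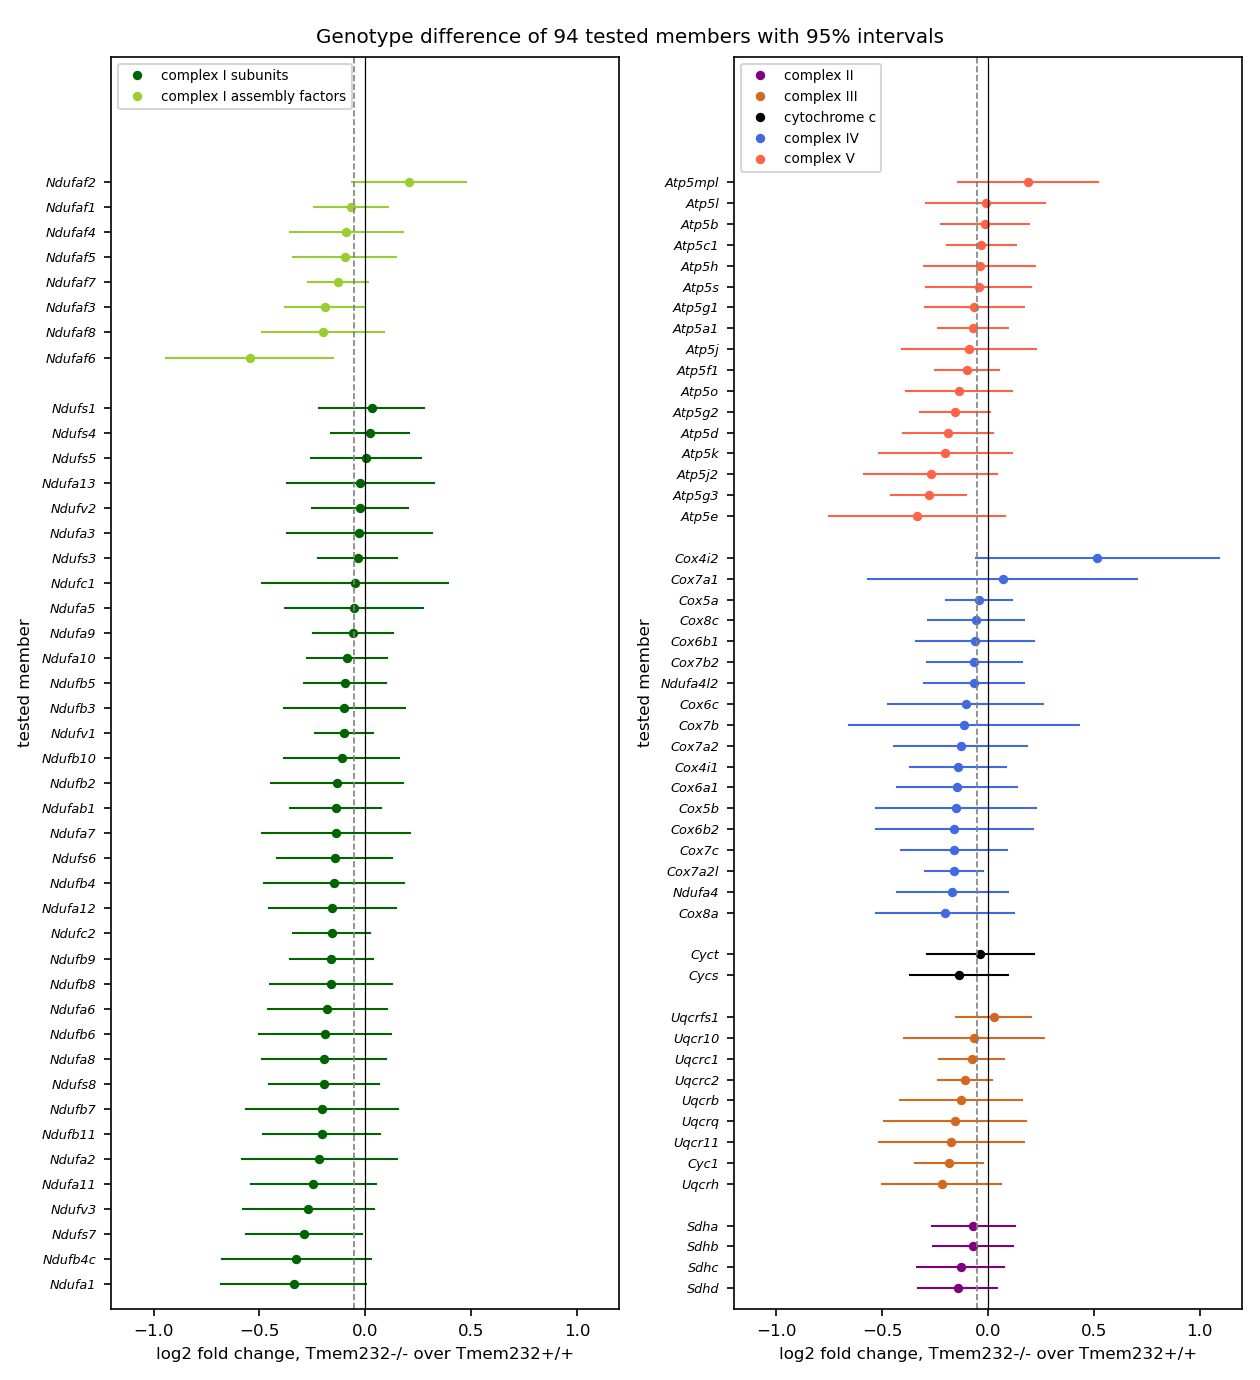
Log2 fold change of Tmem232-/- over Tmem232+/+ for 94 of the 95 tested members, grouped by complex. Lines are 95% intervals built from the edgeR test, and a dashed line marks the median of all tested genes (-0.05). Of the 94 points 86 lie below 0, and 93 intervals stay between -1 and 1.

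Complex I takes electrons from NADH and is the largest of the complexes. Of its 37 tested subunits 0 passed the test, with a median log2 fold change of -0.14 and a range of -0.34 to 0.03. The most abundant per length was Ndufc1, an accessory subunit, at 439, 351, 337 and 580 FPKM in Tmem232-/- and 392, 371, 622 and 430 FPKM in Tmem232+/+ libraries. The highest and lowest libraries of either genotype differed more than the genotypes did, and the log2 fold change was -0.05 ± 0.20 (SE; adjusted p = 0.90). Ndufa11 had the lowest FPKM of the tested subunits, at 12.5 ± 2.33 and 15.2 ± 2.31 FPKM (SD, n = 4), which rests on a length of 2487 bases behind the deposited values. Ndufs7, a core subunit with an iron-sulfur cluster that was named after its values were seen, had the only unadjusted p under 0.05 of the group, with a log2 fold change of -0.29 ± 0.13 (SE; adjusted p = 0.18).

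Ndufa11b, whose symbol names it as a relative of Ndufa11, was not tested because its counts were low. It had 10, 10, 9 and 20 counts in Tmem232-/- and 4, 3, 4 and 3 counts in Tmem232+/+ libraries, which are 0.666, 0.628, 0.569 and 1.23 CPM against 0.249, 0.182, 0.253 and 0.184 CPM. Every Tmem232-/- library lay above every Tmem232+/+ library. The ratio of the summed counts, scaled by library, was 3.59, with an exact 95% interval of 1.95 to 7.04 for counting error alone. With no filter on low counts edgeR gave a log2 fold change of 1.84 ± 0.40 (SE; adjusted p = 0.0089), and 9.18% of all genes were then called higher. In FPKM the levels were 1.15 ± 0.505 and 0.218 ± 0.0759 (SD, n = 4), against 106 FPKM for the median tested member. Ndufb4b, also untested, had at most 2.67 estimated counts in any library and 0 in 4 of them. Its counts were not whole in 4 libraries, and those of Ndufb4 and Ndufb4c in all 8. Reads of these copies may thus have been split, and their values are uncertain.

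The assembly factors of complex I had -0.11 as their median log2 fold change, and 0 of 8 passed the test. Ndufaf3 was the most abundant per length, at 179 ± 17.2 and 208 ± 17.0 FPKM (SD, n = 4), and had a log2 fold change of -0.19 ± 0.09 (SE; adjusted p = 0.20). Leaving out 1 library gave -0.25 to -0.12 for Ndufaf3. Ndufaf6 was the least abundant per length, at 1.85 ± 0.277 and 2.76 ± 0.308 FPKM (SD, n = 4). Its counts were at 1.46, 1.57, 2.02 and 1.66 CPM in Tmem232-/- and 2.55, 2.42, 2.09 and 2.76 CPM in Tmem232+/+ libraries. The genotypes did not overlap, by a margin of 2.02 against 2.09 CPM. Its log2 fold change of -0.55 ± 0.18 was the lowest of all members (SE; adjusted p = 0.078 in edgeR), while limma on log2(FPKM + 1) gave -0.40 and an adjusted p of 0.020. Over all settings that were tried its adjusted p lay between 0.020 and 0.22. Ndufaf7, another assembly factor that was named after its values were seen, was at 48.0 to 50.2 CPM against 50.6 to 57.5 CPM, also without overlap (log2 fold change -0.13 ± 0.06, SE; adjusted p = 0.24, edgeR). The counts of Ndufaf7 were not whole in 2 libraries.

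Complex II, which oxidises succinate in the citrate cycle, had its 4 genes between -0.14 and -0.07 on the log2 scale, and 0 passed the test. Sdhc, an anchor in the membrane, was at 115, 96.6, 99.4 and 119 CPM against 120, 107, 133 and 110 CPM. Sdhd, the other anchor, was at 48.2, 48.8, 51.8 and 49.1 CPM against 61.0, 55.7, 46.2 and 55.6 CPM. In Sdhd 3 of the 4 Tmem232+/+ libraries lay above all Tmem232-/- libraries and replicate 3 lay below them. The summed CPM of the 4 genes was 446 to 453 in Tmem232-/- and 461 to 503 in Tmem232+/+ testes, a ratio of 0.938 beside 0.936 for all members.

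Complex III hands electrons from ubiquinol to cytochrome c. Its 9 genes lay around a median of -0.13 on the log2 scale, and 0 passed the test. Uqcrb, an accessory subunit, was the most abundant per length at 296 ± 29.6 and 332 ± 66.1 FPKM (SD, n = 4). Cyc1, which encodes the cytochrome c1 of the complex, had the lowest level per length, at 51.2 ± 4.67 and 59.5 ± 1.47 FPKM (SD, n = 4). It was at 53.1, 51.9, 48.1 and 58.4 CPM in Tmem232-/- and 64.1, 57.3, 59.6 and 59.3 CPM in Tmem232+/+ libraries, overlapping through 1 library of each genotype, with a log2 fold change of -0.18 ± 0.07 (SE; adjusted p = 0.15, edgeR). Leaving out 1 library gave -0.22 to -0.11 for Cyc1. Uqcrc2, a core protein named after its values were seen, did not overlap at 206 to 223 CPM against 229 to 238 CPM, and its log2 fold change was -0.11 ± 0.06 (SE; adjusted p = 0.28, edgeR). The counts of Uqcrc2 were not whole in all 8 libraries.

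Complex IV reduces oxygen to water. Of its 18 tested genes 0 passed the test, with a median log2 fold change of -0.12. Cox4i1, the common form of subunit 4, was at 255, 213, 206 and 260 CPM against 273, 226, 291 and 241 CPM, and the genotypes overlapped. Cox7a2l, which helps complexes III and IV to join and was named after its values were seen, was at 64.7, 69.4, 66.8 and 73.3 CPM against 79.9, 76.2, 75.9 and 74.8 CPM. It did not overlap, and its log2 fold change was -0.16 ± 0.06 (SE; adjusted p = 0.13, edgeR). Cox8a had a log2 fold change of -0.20 ± 0.15 (SE; adjusted p = 0.43), and without Tmem232-/- replicate 4 of -0.37 (adjusted p = 0.046).

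ATP synthase held the only member that passed the test. Atp5g3, which encodes a copy of subunit c of the proton-driven ring, was at 35.01, 35.3, 35.2 and 41.3 CPM in Tmem232-/- and at 44.9, 40.8, 47.9 and 44.8 CPM in Tmem232+/+ libraries. The genotypes overlapped, because replicate 4 of Tmem232-/- lay just above replicate 2 of Tmem232+/+. The log2 fold change was -0.28 ± 0.08 (SE; adjusted p = 0.045, edgeR). The call was near the threshold and was kept when Tmem232-/- replicate 4 or Tmem232+/+ replicate 2 was left out. Without any 1 of the other 6 libraries the adjusted p was between 0.11 and 0.19. The call was also lost with DESeq2 (adjusted p = 0.0502), with its size factors in edgeR (0.070), with no filter (0.12), with at least 10 counts in every library (0.052) and with the replicate number as a block (0.13). Subunit c is also encoded by Atp5g1 and Atp5g2, named here for comparison, which were at 60.8 ± 8.01 and 63.6 ± 7.02 CPM and at 36.8 ± 2.31 and 41.0 ± 2.65 CPM (SD, n = 4). Their adjusted p in edgeR was 0.74 for Atp5g1 and 0.23 for Atp5g2, and whether the 3 genes differed in their change was not tested.

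The other 16 genes of ATP synthase had no call, and the median of all 17 was -0.09. Atp5b, the catalytic subunit beta, was the most abundant per length, at 420.2 ± 33.3 and 434 ± 44.9 FPKM (SD, n = 4). Its counts were at 665, 782, 765 and 691 CPM against 832, 726, 620 and 751 CPM. Its highest and its lowest library were both Tmem232+/+, and the log2 fold change was -0.01 ± 0.09 (SE; adjusted p = 0.95). Atp5s, which encodes coupling factor B, was the least abundant per length at 26.5 ± 1.91 and 27.8 ± 5.11 FPKM (SD, n = 4).

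**Figure D3:**
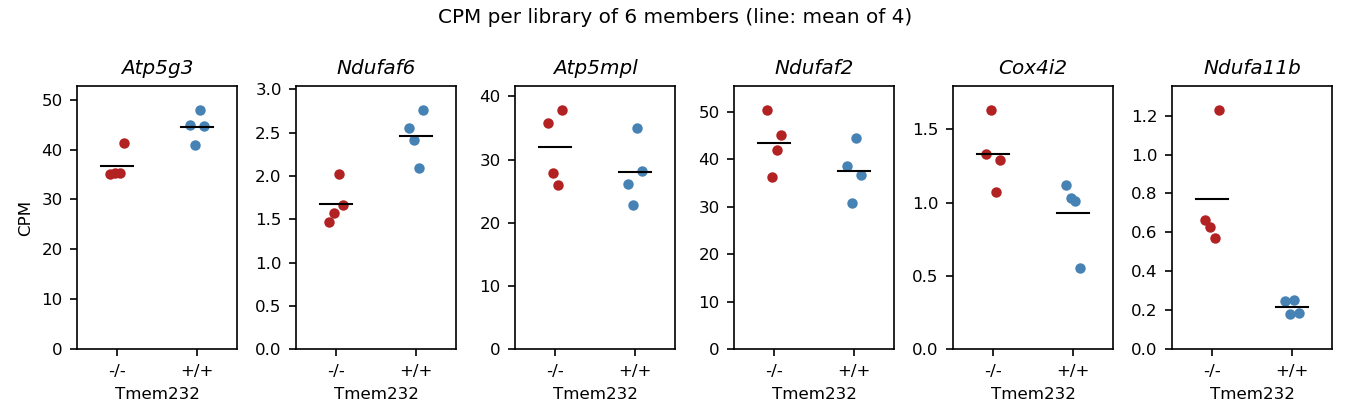
CPM per library (linear axes from 0) of 6 members named for a call, a lack of overlap or a high fold change under some setting, with 4 libraries per genotype and a line at each mean. Ndufaf6 and Ndufa11b do not overlap between the genotypes, and in Atp5g3, Atp5mpl, Ndufaf2 and Cox4i2 the points of the genotypes do.

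The spread between libraries of a genotype was large beside the genotype difference of most members. For 72 of 95 members (75.8%) the difference was under the pooled SD, beside 52.9% of all tested genes. The median SD within a genotype was 0.19 on the log2 CPM scale for the members and 0.16 for all tested genes. Of the 95 members 64 had their highest value in Tmem232+/+ replicate 3. The lowest value fell in Tmem232-/- replicate 3 for 42 members, in Tmem232-/- replicate 2 for 24 and in Tmem232+/+ replicate 2 for 16.

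In some of the libraries the deviations of the members went with the length of the transcripts, which are short for most members (median 519 bases, against 2594 for all tested genes at 1 CPM or more). The 45 members under 500 bases had medians of 0.02, -0.22, -0.23 and 0.18 in the 4 Tmem232-/- libraries and of 0.08, -0.21, 0.34 and 0.02 in the 4 Tmem232+/+ libraries, as log2 CPM relative to the mean of the 8. The 24 members over 1000 bases had medians between -0.09 and 0.12. The 336 other tested genes under 500 bases, at 1 CPM or more, had medians of 0.10, -0.11, -0.17 and 0.21 in the Tmem232-/- libraries and of 0.04, -0.24, 0.23 and -0.05 in the Tmem232+/+ libraries. Across the 95 members Spearman's rho of this deviation with length was -0.04, 0.45, 0.50 and -0.57 in the Tmem232-/- libraries and -0.02, 0.62, -0.60 and 0.08 in the Tmem232+/+ libraries, as a description over genes of the same libraries. In Tmem232+/+ replicate 1 short and long members lay alike above their mean, with medians of 0.08 and 0.07.

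The trend with length was removed within each library as an alternative chosen after the data were seen, and 2 members were then higher and 1 lower, beside 13.6% of all tested genes called in either direction. The higher ones were Atp5mpl, a small subunit of ATP synthase, with a log2 fold change of 0.27 ± 0.07 (SE; adjusted p = 0.027, edgeR), and Ndufaf2, an assembly factor of complex I, with 0.28 ± 0.08 (SE; adjusted p = 0.035, edgeR). Without this step they were at 0.19 and 0.21, with adjusted p of 0.47 and 0.33. The lower one was Atp5j2, another small subunit of ATP synthase, at -0.19 ± 0.06 (SE; adjusted p = 0.048, edgeR). Atp5g3 was at -0.22 with an adjusted p of 0.063.

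**Figure D4:**
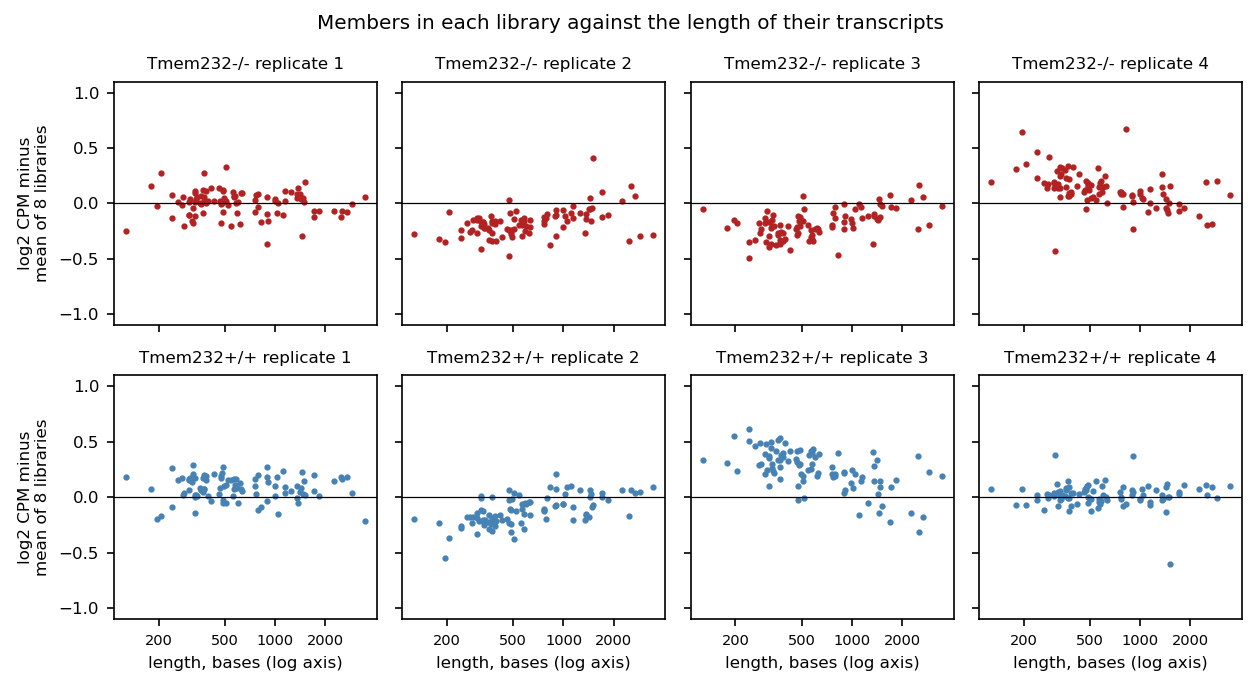
Log2 CPM of each of the 95 tested members minus its mean over the 8 libraries, against transcript length in bases (log axis), with 1 panel per library. Of the 45 members under 500 bases 29, 1, 0 and 43 lie above 0 in the Tmem232-/- panels and 38, 3, 44 and 29 in the Tmem232+/+ panels, with medians farthest from 0 in Tmem232+/+ replicate 3 (0.34) and Tmem232-/- replicate 3 (-0.23).

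The 3 X-linked members, Ndufa1, Ndufb11 and Cox7b, had mean levels of 32.8, 25.6 and 9.99 FPKM, beside a median of 107 FPKM over the 92 tested autosomal members. Of the autosomal members 11 were at or below the highest of these levels and 3 below the lowest. The log2 fold changes of the X-linked members were between -0.34 and -0.11, with 0 calls, and Ndufb11 passed the test only without Tmem232-/- replicate 4 (adjusted p = 0.048, edgeR).

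Other genes of the pathway were taken from lists of assembly factors, carriers, citrate cycle enzymes and regulators. Of 82 listed genes 81 were in the table and 80 were tested, of which 4 were higher and 3 lower. The higher genes were Nubpl, an iron-sulfur assembly factor of complex I (log2 fold change 0.65 ± 0.12, SE), Lyrm7, a complex III assembly factor (0.62 ± 0.11, SE), Tfam, which packages mitochondrial DNA (0.70 ± 0.13, SE), and Ppargc1b, a coactivator of mitochondrial genes (0.85 ± 0.25, SE). Their adjusted p in edgeR was 0.0045, 0.0032, 0.0035 and 0.048. The lower genes were Slc25a4, an ADP/ATP carrier (-0.37 ± 0.10, SE), Cox10, which makes a precursor of the heme of complex IV (-0.25 ± 0.06, SE), and Polrmt, the mitochondrial RNA polymerase (-0.26 ± 0.07, SE), with adjusted p of 0.030, 0.022 and 0.027. Of the 20 genes of pyruvate dehydrogenase and the citrate cycle 0 passed the test, with log2 fold changes from -0.20 to 0.23. The pathway lists thus held 7 calls among 80 tested genes, beside the 11.8% called over all genes.

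The summed level of all members was 8223 ± 628 CPM in Tmem232-/- and 8781 ± 739 CPM in Tmem232+/+ testes (SD, n = 4), a ratio of 0.936, and the ranges of 7653 to 8998 and 7888 to 9648 CPM overlapped. The summed markers of elongating spermatids in the same libraries were at 1854 against 494 CPM on average, and those of spermatocytes at 5316 against 5400 CPM.

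**Figure D5:**
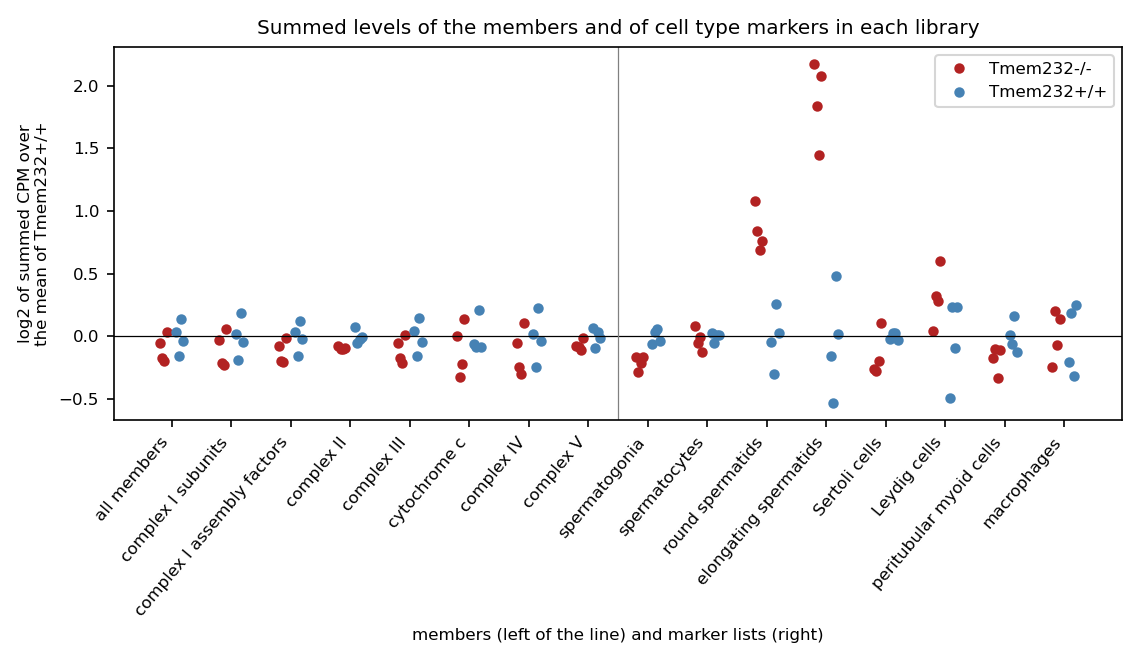
Summed CPM in each library of the members, by complex, and of the markers of 8 cell types, as log2 relative to the mean of the Tmem232+/+ libraries. All members together overlap between the genotypes, at 7653 to 8998 CPM in Tmem232-/- and 7888 to 9648 CPM in Tmem232+/+ libraries. Among the groups of members only complex II does not overlap, at 446 to 453 against 461 to 503 CPM. The spermatid markers of the Tmem232-/- libraries lie above all Tmem232+/+ libraries.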

How the data were processed

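Testis RNA of 8 mice was sequenced in paired-end reads, and each library was assigned to its genotype and replicate number by its labels. The authors mapped reads to GRCm38.p6 with HISAT and Bowtie2 and counted them with StringTie and featureCounts, in versions not given in the sources used here. The authors deposited estimated counts without any scaling, of which 10.7% to 11.2% per library were not whole numbers. The authors also deposited FPKM values, scaled by transcript length and by the library total. The authors' own group means, fold changes, p-values and q-values stand in the same table and were not used.

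Counts were rounded and compared in R 4.3.3 with edgeR 4.0.16 (filterByExpr, TMM scaling, quasi-likelihood test, no covariates), fitted on all genes, with Benjamini-Hochberg adjustment over the 15787 tested genes. CPM are counts scaled to 1000000 per library after TMM. Isoform ratios were log2 ratios of CPM + 0.5, compared by exact permutation over 70 arrangements of the libraries in Python 3.11.15 with scipy 1.17.1. Counting intervals and the limit of 3 counts for a count of 0 cover counting error only. Alternatives were DESeq2 1.42.0, limma 3.58.1 on counts (voom) and on log2(FPKM + 1) or log2(FPKM + 0.1), other scalings, filters, a 1.5-fold threshold, a replicate block and leaving out each library. The script was tested on simulated data.

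Genes were named by a rule: Tmem232, both genes of 7 isoform pairs, members with an adjusted p under 0.05, the members of highest and lowest mean FPKM in each group, and members not tested. 1 tested member counts in the totals but is not reported here. Others were named outside this rule, and only for some is it said that their values had been seen. The members and all lists were chosen with earlier results of these data known.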

Additional observations from a re-analysis of the deposited data

Results flagged for a closer look

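In 110 groups of 4 libraries the highest or lowest library was compared with the other 3, and 8 stood apart by Dixon's criterion where chance alone gives 5.5. Tmem232+/+ replicate 3 had 144 CPM of Cyct beside 109 to 113 CPM in the other libraries of its genotype, and its summed red blood cell markers were at 305 CPM beside 547 to 597 CPM. Tmem232-/- replicate 4 stood apart in 4 values. It had 39.7 CPM of Cox6b1 beside 27.5 to 29.2 CPM, 41.3 CPM of Atp5g3 beside 35.01 to 35.3 CPM, 1.23 CPM of Ndufa11b beside 0.569 to 0.666 CPM, and a log2 ratio of Cox7b2 to Cox7b of 3.72 beside 4.59 to 4.61. Cox6a2 stood apart in both genotypes, at 0.126 CPM in Tmem232-/- replicate 3 and 0.0614 CPM in Tmem232+/+ replicate 4, with 0 in the other libraries, and these values rest on 2 counts and 1 count.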

How the results depend on the processing

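The median log2 fold change of the members was below 0 in each setting tried, between -0.19 and -0.02 over the fits that left out 1 library, and 0 members were higher in any of those fits. The number of members lower lay between 0 and 4 there, with 4 (Atp5g3, Cox8a, Ndufa4 and Ndufb11) without Tmem232-/- replicate 4 and Atp5g3 alone without Tmem232+/+ replicate 2, and the number of all genes lower lay between 37 and 356. No member was lower with DESeq2, with DESeq2 size factors in edgeR (131 genes lower in all), with no filter (1 member higher and 71 genes lower), with at least 10 counts in every library, or at a fold change of 1.5 or more (30 genes lower). Scaling by library size alone gave 415 genes lower. In limma on log2(FPKM + 1) and log2(FPKM + 0.1) 2 members were lower (Atp5g3 and Ndufaf6), with 466 and 448 genes lower. Without both Tmem232-/- replicate 4 and Tmem232+/+ replicate 3, chosen after seeing the data, 2 members (Atp5g3 and Ndufa4) and 391 genes were lower, and with the length trend removed 2 members were higher. The causes were not tested.

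Several estimates changed sign, and not only those near 0. With the length trend removed Cyct was at 0.030, Cox6b1 at 0.0121, Cox7b2 at 0.0120, Cox8c at 0.0225, Ndufc1 at 0.0269, Atp5b at 0.0468 and Atp5s at 0.0173. Without both named libraries Cyct was at 0.0168, Uqcrb at 0.0013 and Atp5s at 0.0766. Atp5b was at 0.0131 with DESeq2 and with its size factors and at 0.0325 with no filter, where Cyct was at 0.0045. Cox4i2, at 0.52 in edgeR on counts, was at -0.0357 and -0.0635 in limma on log2(FPKM + 1) and log2(FPKM + 0.1). Leaving out 1 library gave ranges of -0.10 to 0.10 for Cyct, -0.28 to 0.0491 for Cox6b2, -0.19 to 0.0511 for Cox6b1, -0.15 to 0.0114 for Cox7b2, -0.45 to 0.0394 for Cox7b, -0.13 to 0.0344 for Cox8c, -0.21 to 0.35 for Cox7a1, -0.24 to 0.0268 for Cox7a2, -0.23 to 0.17 for Ndufc1, -0.21 to 0.0494 for Uqcrb, -0.0533 to 0.10 for Atp5b, -0.11 to 0.11 for Atp5s and -0.15 to 0.0061 for the ratio of Cox6b2 to Cox6b1. Over the settings the adjusted p of Atp5g3 was between 0.021 and 0.19.

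With the replicate number as a block 0 members and 28 genes were lower and 1317 genes higher, against 1, 230 and 1633 without it. Deviations of libraries with the same number had correlations of -0.06, 0.07, -0.33 and -0.11 over all tested genes. Over the members these correlations were -0.29, 0.51, -0.74 and -0.23. Libraries with different numbers reached -0.32 to 0.39 over all tested genes and -0.65 to 0.67 over the members. Whether libraries with the same number shared more than the number was not tested. With the block Atp5g3 had an adjusted p of 0.13 and Tmem232 one of 0.11 (edgeR). The median was 922.5 counts per member and library. Cox4i2, with 9 to 26 counts per library, had the highest upper bound of all intervals at 1.09. The part of depth in the width of the intervals was not tested.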
